A study of Mus musculus with 6 samples.

Results

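The Hippo pathway genes measured here were Yap1, Wwtr1, Tead1, Tead2, Lats1, Lats2, Nf2, Amot, Amotl1 and Amotl2. They were taken as all non-control array probes that carry 1 of these symbols or an earlier one, which gave 22 probes for 10 genes, out of 41174 probes under 27597 gene names. Of the 22 probes, 3 were found through an earlier name (1 for Lats1 and 2 for Tead1). Where a gene had several probes, they are lettered by their position along the chromosome. RNA came from ooplasts and blastocysts of B6C3 F1 mice, and each sample was hybridised in 1 colour (Cy3) to its own Agilent array. An ooplast is an oocyte from which the chromosomes have been taken out, and a blastocyst is the embryo with an outer trophectoderm, an inner cell mass and a fluid-filled cavity. The groups were climacteric blastocysts (2 arrays), young blastocysts (2 arrays), climacteric ooplasts (1 array) and young ooplasts (1 array). Climacteric refers to females in reproductive decline. The labels used here give age in these words alone. They state neither how many oocytes or embryos went into a sample nor the way in which the blastocysts were obtained. RNA was amplified before labelling, and no DNase was used.

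The Hippo pathway is a kinase cascade that controls growth and, in the early mouse embryo, the choice between trophectoderm and inner cell mass. The upstream protein merlin (Nf2) and the angiomotins (Amot, Amotl1, Amotl2) activate the kinases Lats1 and Lats2, which phosphorylate the coactivators Yap1 and Wwtr1 (also called TAZ) and keep them out of the nucleus. In outer cells of the embryo the cascade is inactive, the coactivators enter the nucleus and bind TEAD transcription factors, and Cdx2 and Gata3 are switched on. In inner cells angiomotins at cell contacts keep the cascade active.

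Between 42.2% and 57.3% of the non-control spots were well above background, with the lowest shares on the ooplast arrays. The 75th percentile of the processed signal was 721 to 1111 units on the blastocyst arrays and 235 and 238 units on the ooplast arrays. Levels below are therefore given in units of processed signal and as a scaled level, which is log2 of the signal minus that array's 75th percentile. The lowest scaled level that was well above background was -3.97 to -3.45 on blastocyst arrays and -2.30 and -2.20 on ooplast arrays. Of the 6 trophectoderm markers, all 6 were above background on each blastocyst array, and 4 were so on the climacteric and 5 on the young ooplast array. Of the 3 inner cell mass markers, 3 were above background on each blastocyst array and 1 on each ooplast array. Of the 9 oocyte markers, 4 or 5 were above background on a blastocyst array and 9 on each ooplast array. Ooplast and blastocyst samples thus carried the markers of their labels. Of 8 cumulus and granulosa cell markers, 4 or 5 were above background on a blastocyst array and 4 on each ooplast array, and Lhcgr was on none. Their summed level relative to the 75th percentile was 10.6 to 19.5 on blastocyst arrays, against 79.5 and 82.8 on the ooplast arrays. Most of the ooplast sum was Cyp19a1, at a scaled level of -1.55 to -0.89 in blastocysts and 6.22 and 6.30 in ooplasts. Amhr2 went the other way, at 2.94 to 4.05 in blastocysts and -2.26 and -1.87 in ooplasts. Their part in the stage differences was not tested. In bulk RNA, fewer cells of a type and less RNA per cell cannot be told apart.

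TEAD factors bind the 6 bases CATTCC. Read along the other strand the element becomes GGAATG. RefSeq promoter windows (GRCm38.p6, 250 bases before to 50 bases after the start of transcription) were found for 9 of the 10 genes, and 4 of these genes hold the 6 bases on either strand. Of all 27025 genes with a window, 16.6% hold them. The 4 windows are shown, without their last bases, because they belong to coactivators of TEAD factors and to regulators of these that differed between the stages. They lie at chr3:57575891-57576160 (minus strand) for Wwtr1, chr14:57746104-57746373 (minus strand) for Lats2, chr9:8004577-8004846 (minus strand) for Yap1 and chr9:102717554-102717823 (plus strand) for Amotl2. Each is written 5′ to 3′ along the gene, with the 6 bases in capitals and the last 20 bases lying after the start.
Wwtr1: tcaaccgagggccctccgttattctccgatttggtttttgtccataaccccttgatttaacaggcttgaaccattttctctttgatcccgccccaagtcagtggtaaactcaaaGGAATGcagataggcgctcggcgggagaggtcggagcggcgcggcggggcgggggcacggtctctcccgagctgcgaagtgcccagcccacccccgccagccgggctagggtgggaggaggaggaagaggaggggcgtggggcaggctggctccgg
Lats2: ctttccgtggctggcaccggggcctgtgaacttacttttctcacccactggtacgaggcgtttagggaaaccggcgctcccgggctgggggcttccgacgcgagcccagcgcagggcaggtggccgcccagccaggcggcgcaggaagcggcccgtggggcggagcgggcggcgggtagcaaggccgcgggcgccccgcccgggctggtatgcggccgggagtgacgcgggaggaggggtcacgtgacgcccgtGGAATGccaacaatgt
Yap1: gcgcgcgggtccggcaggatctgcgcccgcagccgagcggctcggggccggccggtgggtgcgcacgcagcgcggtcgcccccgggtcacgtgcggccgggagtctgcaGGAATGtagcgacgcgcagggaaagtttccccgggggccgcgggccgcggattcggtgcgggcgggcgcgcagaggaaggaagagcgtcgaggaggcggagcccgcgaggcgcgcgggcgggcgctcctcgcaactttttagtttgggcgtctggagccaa
Amotl2: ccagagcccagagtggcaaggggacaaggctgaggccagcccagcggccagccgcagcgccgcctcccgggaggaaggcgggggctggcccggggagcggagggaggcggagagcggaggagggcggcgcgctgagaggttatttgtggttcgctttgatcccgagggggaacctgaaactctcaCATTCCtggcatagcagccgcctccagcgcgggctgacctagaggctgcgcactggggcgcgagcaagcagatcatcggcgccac
The first of the 6 bases lies 136 bases before the start in Wwtr1, 5 bases after it in Lats2, 141 bases before it in Yap1 and 65 bases before it in Amotl2. A match of letters is a description of the window and not a measured binding site. On the scaled level Wwtr1 and Lats2 were higher and Yap1 and Amotl2 lower in blastocysts than in ooplasts (Amotl2 was higher there without scaling), so the genes with the match did not share a direction.

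Blastocysts (4 arrays) were compared first with ooplasts (2 arrays), in a fit that also held age. Both coactivators differed, in opposite directions, but the Wwtr1 probes were tested only because they were above background on all blastocyst arrays. On the scaled level, to which the folds here refer, Yap1 was 15.2-fold lower in blastocysts, while a probe of Wwtr1 was at least 19.7-fold higher there. Probe c of Tead1 and probe b of Tead2 were 17.2-fold and 7.54-fold higher in blastocysts, the probes of Lats2 were higher, and Nf2 was 3.24-fold lower on the scaled level but not without scaling. A probe was tested if all arrays of 1 or both stages had it well above background, which held for 14 of the 22. Of these 14, 10 were higher in blastocysts, where 35.6% of all 20983 tested probes were higher, and 3 were lower, where 38.2% of all were lower. In either direction 73.8% of all tested probes passed an adjusted p of 0.05 (limma, Benjamini-Hochberg), so that passing does not set a gene apart. The median difference was 2.36 on the log2 scale over the 14 probes and -0.22 over all tested probes. The 10 higher probes belong to 4 genes (Wwtr1, Tead1, Tead2 and Lats2). By the brightest probe of each gene, 4 of 8 genes were higher and 3 lower, where 35.3% and 38.7% of 15605 genes were. The median was then 1.41 over the 8 genes and -0.26 over all. Of the 14, 6 were not well above background on both ooplast arrays and entered the test through the blastocysts. These were Wwtr1 a and b, Tead1 a, Tead2 a, and Lats2 c and d. Such a filter favours a higher level in blastocysts, so their calls add no separate support. The stages did not overlap for 13 of the 14, nor for 79.1% of all tested probes. Of the 8 probes above background on all 6 arrays, 4 were higher, 3 were lower and 1 did not pass. Among all 13368 such probes, tested alone, 3784 were higher and 5997 were lower. Both ooplast arrays lay on slide 1. Within that slide alone Amotl2 (-0.88) and Tead1 a (0.86) missed the threshold, and the other calls were kept.

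**Figure D1:**
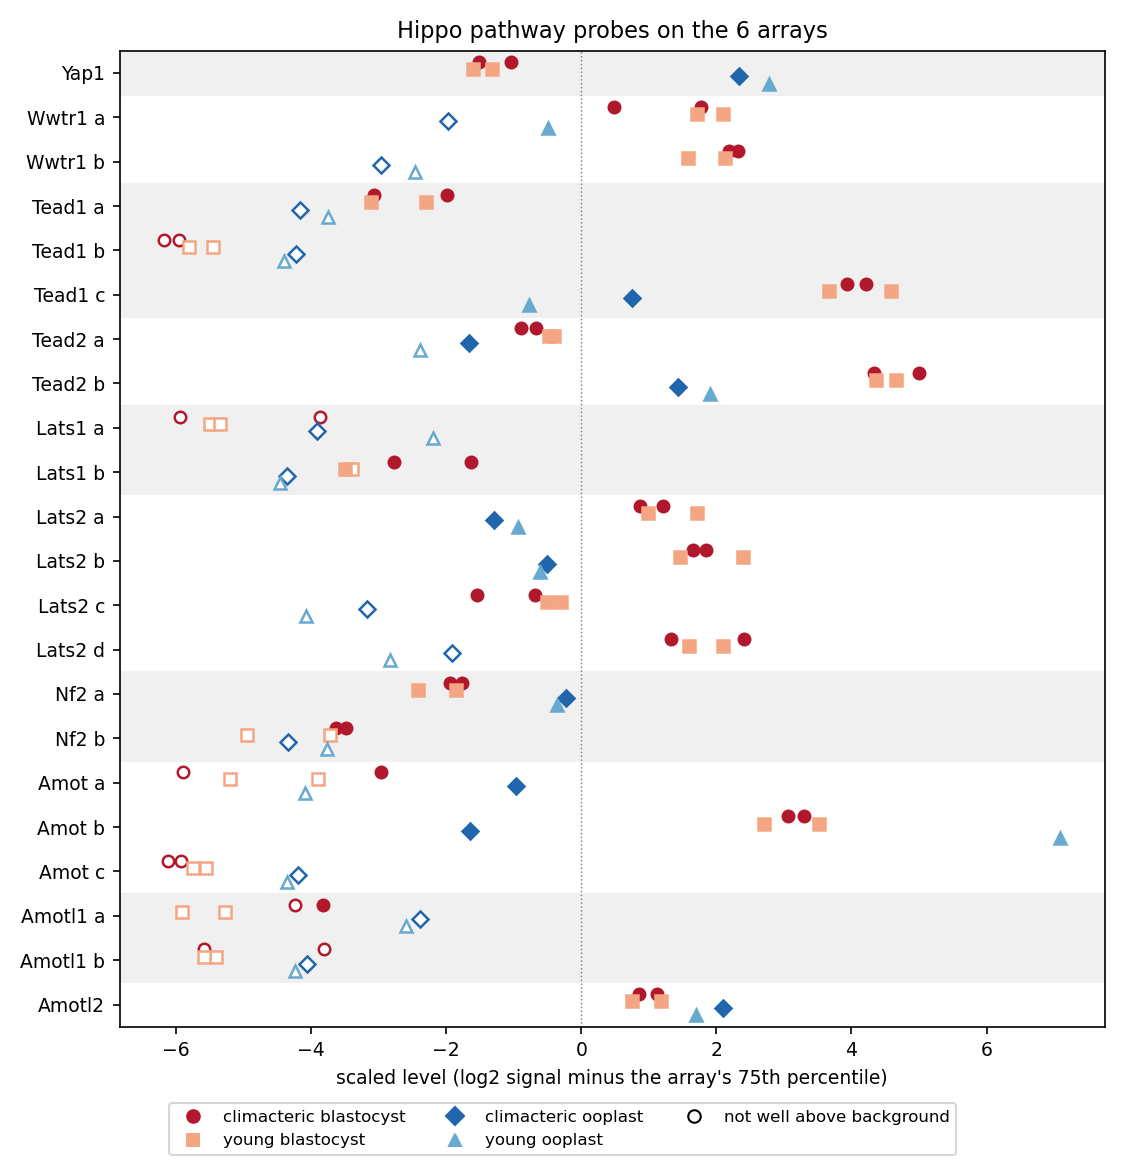
Scaled level (log2, relative to the 75th percentile of each array, horizontal axis) of each of the 22 Hippo pathway probes (rows) on the 6 arrays; each point is 1 array, and open points were not well above background. Blastocyst points (red and orange) lie to the left of ooplast points (blue) for Yap1 and to the right of them for Wwtr1, Tead1 c, Tead2 and Lats2, and the 2 ooplast points of Amot b lie at -1.65 and 7.09.

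Yap1 encodes the coactivator that carries the pathway's output to TEAD factors. Its probe (mm8, chromosome 9, 7933061 to 7933120, minus strand) gave 374 and 414 units in climacteric blastocysts, 237 and 443 in young blastocysts, 1195 in climacteric ooplasts and 1613 in young ooplasts. The scaled level was -1.51 and -1.04 in climacteric blastocysts, -1.60 and -1.33 in young blastocysts, 2.33 in climacteric ooplasts and 2.78 in young ooplasts. All 4 blastocyst arrays lay below both ooplast arrays on either scale. On the scaled level the spread within a stage was far smaller than the gap. The difference was -3.92 ± 0.30 on the log2 scale (SE, adjusted p = 5.96e-05, limma). It kept its sign without any scaling between arrays (-1.96, adjusted p = 0.0023).

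Wwtr1 encodes TAZ, the paralogue of Yap1. Its probe a (chromosome 3, 57546558 to 57546617, minus strand) gave 1485 and 2921 units in climacteric blastocysts, 3084 and 3629 in young blastocysts, 60.6 in climacteric ooplasts and 167 in young ooplasts. Only the young of the ooplast arrays was well above background for it. Probe b, placed across 57547017 to 57550484, gave 5321 and 3892 units in climacteric blastocysts, 3140 and 3322 in young blastocysts, 30.6 in climacteric ooplasts and 42.7 in young ooplasts, and was not above background in ooplasts. Both probes separated the stages without overlap. Probe a was 2.75 ± 0.43 higher on the log2 scale in blastocysts (SE, adjusted p = 0.0014), and probe b 4.76 ± 0.33 (adjusted p = 3.9e-05), or at least 19.7-fold. A fold given as "at least" is the mean of the bright group over the lowest measurable level of the dim arrays, meaning the lowest signal flagged well above background there, or what the probe itself read where this was higher.

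TEAD factors are the DNA-binding partners of both coactivators. Tead1 had 3 probes on chromosome 7, plus strand. Probe c (112697511 to 112697570) gave 19679 and 13003 units in climacteric blastocysts, 17221 and 14151 in young blastocysts, 398 in climacteric ooplasts and 139 in young ooplasts, and was above background on all 6 arrays. Every blastocyst array lay above both ooplast arrays, and the difference was 4.11 ± 0.46 on the log2 scale (SE, adjusted p = 0.00028). It was 3.33 without the young ooplast array and 4.89 without the climacteric one. Probe a (112690667 to 112690726) gave 127 and 216 units in climacteric blastocysts, 83.1 and 227 in young blastocysts, 13.3 in climacteric ooplasts and 17.6 in young ooplasts, and was above background in blastocysts alone. Its difference of 1.34 ± 0.43 (adjusted p = 0.027) turned to -0.36 with another background correction (normexp), and it missed the threshold without the climacteric ooplast array (1.04, adjusted p = 0.20), the young ooplast array (1.64, adjusted p = 0.066) or young blastocyst replicate 2 (adjusted p = 0.065), and with the replicate block (0.86, adjusted p = 0.067). Probe b (112695424 to 112695483) was not above background on any array, at 13.8 to 20.0 units in blastocysts and 11.1 and 12.8 units in ooplasts, so the 3 probes did not give 1 picture of the gene.

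Tead2 is known as a TEAD factor of the cleavage-stage mouse embryo. Its probe b (chromosome 7, 45101486 to 45101545, plus strand) gave 33970 and 17204 units in climacteric blastocysts, 14809 and 27960 in young blastocysts, 641 in climacteric ooplasts and 887 in young ooplasts. The scaled level averaged 4.59 ± 0.31 in blastocysts (SD, n = 4) against 1.67 ± 0.34 in ooplasts (SD, n = 2). The stages did not overlap, and the difference was 2.92 ± 0.32 on the log2 scale (SE, adjusted p = 0.00028). Probe a (45100284 to 45100343) gave 666 and 460 units in climacteric blastocysts, 546 and 797 in young blastocysts, 75.3 in climacteric ooplasts and 44.9 in young ooplasts, where it was above background on the climacteric array alone. It was 1.41 ± 0.33 higher in blastocysts (adjusted p = 0.0077), and missed the threshold without the young ooplast array (0.88, adjusted p = 0.082) and with normexp (0.39, adjusted p = 0.14).

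Lats1 and Lats2 are the kinases that phosphorylate Yap1 and TAZ. The 4 Lats2 probes lie on chromosome 14, minus strand. Probe a (56644080 to 56644139) and probe b (56644108 to 56644167) share 32 bases and are not independent. Probe a gave 1952 and 1981 units in climacteric blastocysts, 2370 and 2203 in young blastocysts, 97.0 in climacteric ooplasts and 123 in young ooplasts. Probe b gave 3353 and 3060 units in climacteric blastocysts, 3799 and 3065 in young blastocysts, 167 in climacteric ooplasts and 154 in young ooplasts. Both were above background on all 6 arrays with no overlap of the stages, and were higher in blastocysts by 2.31 ± 0.31 and 2.40 ± 0.34 on the log2 scale (SE, adjusted p = 0.00068 and 0.00085). Probe c (56645246 to 56645305) gave 663 and 293 units in climacteric blastocysts, 588 and 780 in young blastocysts, 26.3 in climacteric ooplasts and 14.0 in young ooplasts. Probe d (56676512 to 56676571), which the array's annotation assigns to an alternatively spliced transcript, gave 2667 and 4524 units in climacteric blastocysts, 3094 and 3361 in young blastocysts, 63.2 in climacteric ooplasts and 33.0 in young ooplasts. Neither was above background in ooplasts. Probe c was at least 2.81-fold and probe d at least 15.6-fold higher in blastocysts (adjusted p = 0.0014 and 0.00017), and probe c missed the threshold with normexp (0.63, adjusted p = 0.077). The log2 difference of probe c was 2.87, or 2.07 without the young and 3.67 without the climacteric ooplast array.

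Lats1 could not be tested between the stages. Its probe a (chromosome 10, 7403063 to 7403122, plus strand) was not above background on any array, with 73.2 and 13.9 units in climacteric blastocysts, 16.1 and 27.4 in young blastocysts, 15.8 in climacteric ooplasts and 51.4 in young ooplasts. Probe b (7405952 to 7406011) gave 156 and 276 units in climacteric blastocysts, 69.0 and 98.3 in young blastocysts, 11.6 in climacteric ooplasts and 10.7 in young ooplasts. It was above background on 3 of the 4 blastocyst arrays, the exception being young replicate 1, and on neither ooplast array. A level of Lats1 in ooplasts was therefore not measured by either probe.

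Nf2 encodes merlin, a membrane-associated activator of the cascade. Its probe a (chromosome 11, 4666399 to 4666458, minus strand) gave 277 and 250.7 units in climacteric blastocysts, 136 and 306 in young blastocysts, 203 in climacteric ooplasts and 183 in young ooplasts. The unscaled signals of the stages overlapped. The scaled level was -1.94 and -1.76 in climacteric blastocysts, -2.41 and -1.86 in young blastocysts, -0.23 in climacteric ooplasts and -0.37 in young ooplasts, with no overlap. The scaled difference was -1.70 ± 0.28 (SE, adjusted p = 0.0018). Without scaling it was 0.27 (adjusted p = 0.58), against a median of 1.74 over all tested probes, so Nf2 was lower relative to the other probes and not in raw signal. Probe b, placed across 4682326 to 4684468, gave 95.1 and 68.8 units in climacteric blastocysts, 23.4 and 84.6 in young blastocysts, 11.7 in climacteric ooplasts and 17.3 in young ooplasts, was above background in climacteric blastocysts alone, and was not tested for stage.

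The angiomotins hold Yap1 at cell contacts and link it to the Lats kinases. Amotl2 (chromosome 9, 102590845 to 102590904, plus strand) gave 1934 and 1845 units in climacteric blastocysts, 1642 and 1878 in young blastocysts, 1019 in climacteric ooplasts and 767 in young ooplasts. After scaling it stood at 0.86 and 1.11 in climacteric blastocysts, 1.19 and 0.76 in young blastocysts, 2.10 in climacteric ooplasts and 1.70 in young ooplasts. The groups did not overlap on either scale, but in opposite orders. The scaled difference was -0.92 ± 0.28 (SE, adjusted p = 0.023) and the unscaled one 1.04 (adjusted p = 0.024), which again lies below the median of all probes. The scaled call was lost in 8 alternatives, among them the replicate block (-0.88, adjusted p = 0.068) and either ooplast array left out (adjusted p = 0.056 without the young and 0.16 without the climacteric one), and also without climacteric blastocyst replicate 1 (-0.84, adjusted p = 0.056) or young blastocyst replicate 2 (-0.86, adjusted p = 0.063). The 2 Amotl1 probes (chromosome 9, 14292363 to 14292396 and 14298093 to 14298152, minus strand) were near background throughout. Probe a gave 74.97 and 45.4 units in climacteric blastocysts, 18.7 and 18.4 in young blastocysts, 45.7 in climacteric ooplasts and 38.9 in young ooplasts, and was above background on climacteric blastocyst replicate 1 alone. Probe b gave 22.1 and 60.8 units in climacteric blastocysts, 17.1 and 23.1 in young blastocysts, 14.3 in climacteric ooplasts and 12.5 in young ooplasts, and was above background on no array.

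Amot, on chromosome X, minus strand, is the angiomotin best known from the mouse blastocyst. Its probe b (140693003 to 140693062) gave 10482 and 7099 units in climacteric blastocysts, 8235 and 7224 in young blastocysts, 75.6 in climacteric ooplasts and 31987 in young ooplasts. The 4 blastocyst arrays were alike, while the 2 ooplast arrays lay on either side of them. The stage difference of 0.43 ± 1.78 (SE, adjusted p = 0.84) is an average over these opposite values. It was 4.83 (adjusted p = 0.00082) without the young ooplast array and -3.98 (adjusted p = 0.0015) without the climacteric one. Probe a, placed by the files on 9 bases (140692776 to 140692784), gave 136 and 14.3 units in climacteric blastocysts, 48.4 and 30.4 in young blastocysts, 121 in climacteric ooplasts and 13.9 in young ooplasts. Probe a was above background on climacteric blastocyst replicate 1 and the climacteric ooplast array. Probe c (140698536 to 140698595) was not above background on any array, at 14.1 to 20.8 units in blastocysts and 11.5 and 13.0 units in ooplasts. The level of Amot thus rested on 1 probe.

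**Figure D2:**
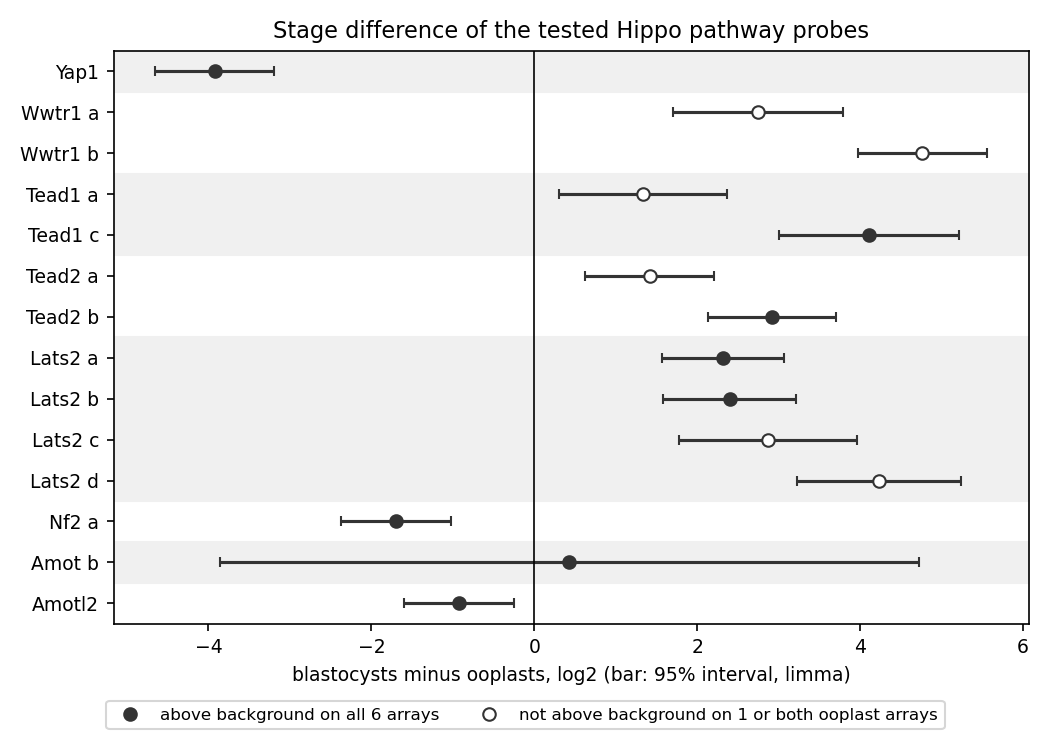
Difference between blastocysts and ooplasts (log2, horizontal axis) for the 14 tested Hippo pathway probes, with 95% intervals from limma; open points were not well above background on 1 or both ooplast arrays. Yap1 (-3.92), Nf2 a (-1.70, or 0.27 without scaling) and Amotl2 (-0.92, or 1.04 without scaling) lie left of 0, the probes of Wwtr1, Tead1, Tead2 and Lats2 lie right of it, and the interval of Amot b runs from -3.86 to 4.72.

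A further 43 genes of the pathway were followed through the brightest tested probe of each. Of these, 37 could be tested for stage: 14 were higher in blastocysts (35.3% of 15605 genes were), 15 were lower (38.7% were) and 8 did not pass. In either direction 74.0% of all genes passed, and the median difference was -0.23 over the 37 genes and -0.26 over all. Without scaling 21 were higher and 9 lower, where 13247 of all 20983 tested probes were higher and 2865 lower. Of the 37 genes, 27 were above background on all 6 arrays. The other 10 entered the test through the blastocysts, which favours a higher level there. Among these, Ajuba and Rock2 were dim in blastocysts, at mean scaled levels of -1.76 and -1.47, and did not pass. With only probes above background on all arrays tested, 6 of the 27 genes were higher and 15 lower. All 13368 probes so tested leaned the same way, with 3784 higher and 5997 lower. Of the 4 tested targets, 4 were higher, but only Gata3 was above background on both ooplast arrays. The others entered the test through the blastocysts, which favours a higher level there. Cdx2, the transcription factor of trophectoderm, was 9.05 ± 0.55 higher on the log2 scale (SE, adjusted p = 2.46e-05). Its scaled level was 7.12 ± 0.13 on the 4 blastocyst arrays, against -1.93 ± 1.79 on the 2 ooplast arrays, where only the young one was above background. The difference was 10.27 without the young and 7.83 without the climacteric ooplast array. Gata3, a trophectoderm transcription factor, was 3.04 ± 0.31 higher (SE, adjusted p = 0.00019). The matricellular protein gene Ccn1 was above background on neither ooplast array and was at least 5.87-fold higher in blastocysts. Ccn2, of the same family, was above background on 1 of the 2 ooplast arrays, and its fitted difference of 4.08 ± 0.33 on the log2 scale (SE) rests partly on a background reading. The targets Ankrd1 and Axl were not tested.

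The TEAD factor best known for trophectoderm, Tead4, was at least 113-fold higher in blastocysts. It was above background on neither ooplast array, so that only this bound is given. Among the Vgll cofactors, which compete with Yap1 for TEAD factors, Vgll3 was at least 36.9-fold higher and Vgll1 was 1.62 ± 0.36 lower on the log2 scale (SE, adjusted p = 0.0067). The Vgll1 difference was -1.03 without the young ooplast array (adjusted p = 0.075), -2.21 without the climacteric one and 0.35 without scaling. Tead3, Vgll2 and Vgll4 were not tested for stage. In the core cassette, the Hippo kinase gene Stk3 (-3.17 ± 0.28, SE) and its scaffold gene Sav1 (-1.73 ± 0.28) were lower in blastocysts, the Lats cofactor gene Mob1a (4.14 ± 0.39) was higher, and Stk4 (0.63 ± 0.52) and Mob1b (-1.01 ± 0.42) did not pass. These are values of the brightest probe, and other probes differed. The other tested probes of Sav1 and Mob1a stood at -0.20 and -0.23 and did not pass, that of Stk4 stood at -2.73 and did not pass, and 1 of the 3 tested Mob1b probes passed as lower (-2.79).

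Of 14 tested upstream regulators, 4 were higher and 7 lower. The TAO kinase gene Taok3 was lower by the widest margin among them (-7.09 ± 0.27, SE), and Wwc2, whose protein family binds the Lats kinases (-4.77 ± 0.28), and Limd1 (-3.75 ± 0.28) were lower too. Wtip, which like Limd1 belongs to the Ajuba LIM proteins that restrain the Lats kinases, was higher (4.63 ± 0.54) and above background on 1 ooplast array, with 5.73 and 3.53 without the young and the climacteric ooplast array. Of 11 polarity and junction genes, 3 were higher and 5 lower. The atypical protein kinase C genes went in opposite directions, with Prkcz at 8.48 ± 0.26 and Prkci at -3.24 ± 0.29. The small GTPase gene Rhoa was higher (4.25 ± 0.33), and the polarity scaffold gene Pard3 was lower (-5.22 ± 0.47). The 3 tested Prkcz probes all passed as higher, but ran from 2.84 to 8.48. The other tested Limd1 probe passed as lower at -1.14. The other tested Rhoa probe stood at -0.23 and did not pass. Of the 3 tested Pard3 probes 2 passed as lower, and the one nearest 0 stood at -0.62.

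**Figure D3:**
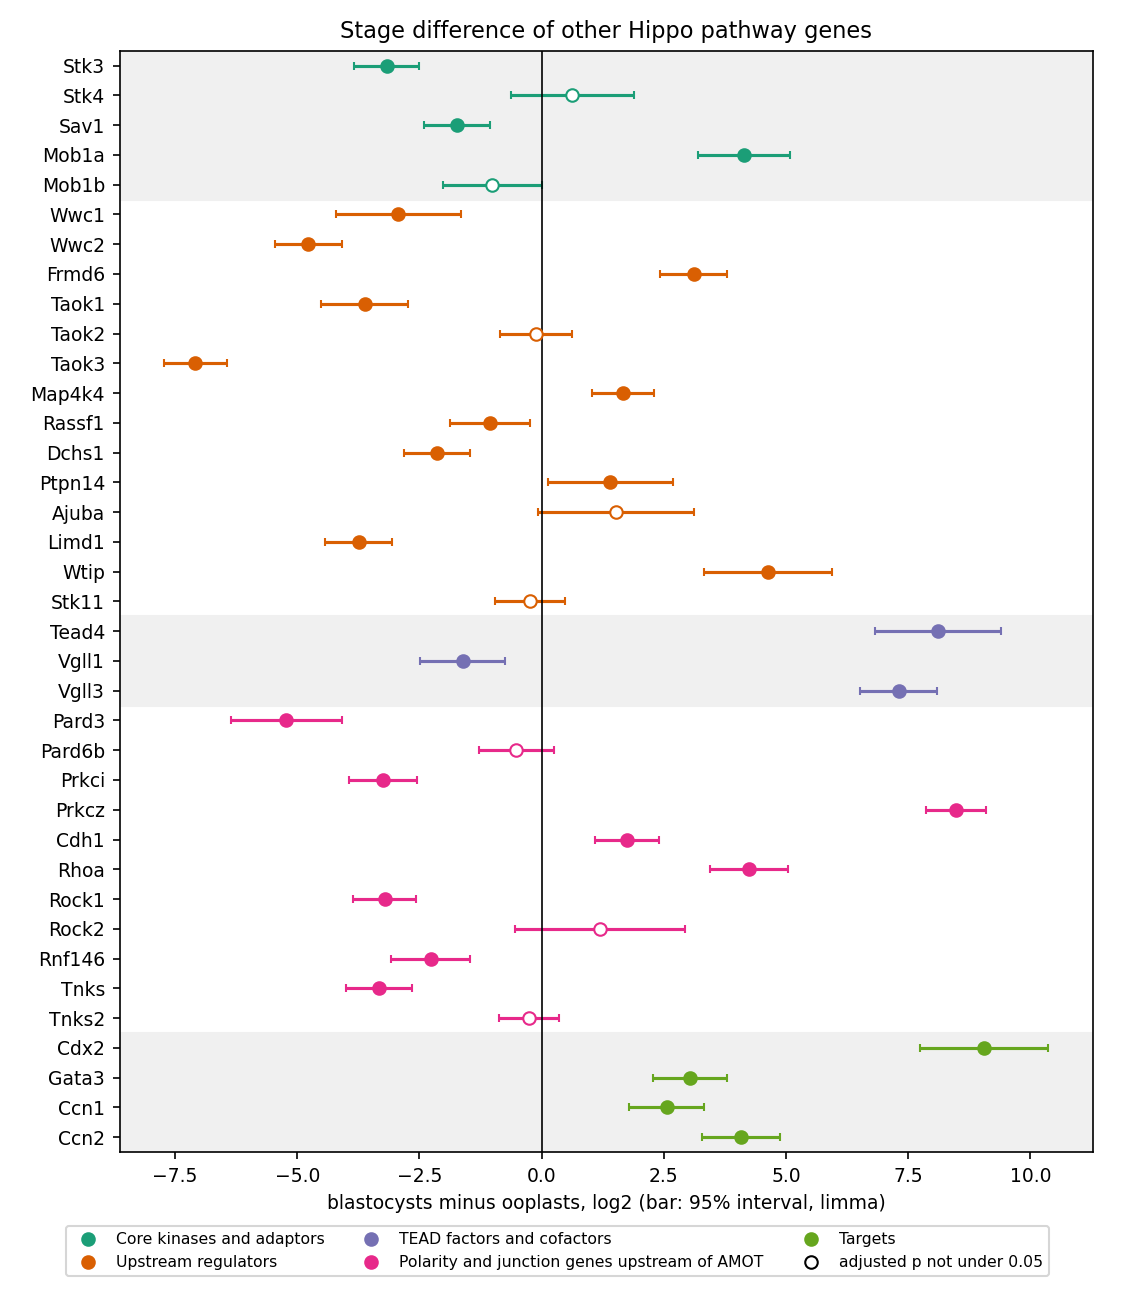
Difference between blastocysts and ooplasts (log2, horizontal axis) for the 37 tested genes of the wider pathway, by the brightest tested probe of each, with 95% intervals from limma; colours give the role and open points did not pass. Prkcz (8.48) and Taok3 (-7.09) lie far out on opposite sides. The targets lie right of 0, but of these only Gata3 was above background on both ooplast arrays.

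The second comparison set climacteric against young blastocysts, 2 arrays each. No Hippo pathway probe passed the test of age. Of 16 tested probes 0 passed, and of all 21649 probes 0 passed (0.0%). At an unadjusted p under 0.05 there was 1 of the 16, where 5.6% of all probes reached it. The differences ran from -0.77 to 1.25 on the log2 scale, with a median of 0.05 against 0.01 over all probes, and their 95% intervals reached 0.75 to 1.30 to either side. The highest value was that of Lats1 b, with scaled levels of -2.77 and -1.63 in climacteric blastocysts and -3.39 and -3.50 in young blastocysts, 1 of them not above background. Its difference was 1.25 ± 0.46 (SE, adjusted p = 0.87, limma), with 0.62 within slide 1 and 1.87 within slide 2. The lowest was that of Wwtr1 a, -0.77 ± 0.51 (adjusted p = 1.00), with -1.62 within slide 1 and 0.07 within slide 2. The age groups did not overlap for 5 of the 16 probes (Wwtr1 b, Tead2 a, Lats1 b, Lats2 c and Nf2 b), where 30.7% of all probes did not. Of these, Lats1 b and Nf2 b entered the test through the climacteric arrays alone. Between the slides, 8 of the 16 probes had differences of the same sign, 6 higher and 2 lower in climacteric blastocysts, and 8 had opposite signs.

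The age difference of Yap1 in blastocysts was 0.19 ± 0.33 (SE), with a 95% interval from -0.65 to 1.03. Those of Tead1 c (-0.05 ± 0.41), Tead2 b (0.16 ± 0.36), Nf2 a (0.28 ± 0.34), Amot b (0.07 ± 0.39) and Amotl2 (0.02 ± 0.32) were of similar precision. The 4 Lats2 probes stood at -0.31, -0.18, -0.71 and 0.02. Among the other pathway genes, 0 of 38 passed and 0 had an unadjusted p under 0.05. The largest differences were those of Tead3 (0.87), Taok3 (-0.74), Prkci (-0.64) and Ajuba (-0.55). Tead3 was above background in climacteric blastocysts alone and entered the test through them. Its young values are thus background readings, and its direction is no separate result. The Ajuba value was 0.14 within slide 1 and -1.24 within slide 2. It ran from -1.37 without young blastocyst replicate 1 to 0.27 without young blastocyst replicate 2, and so changed sign.

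The third comparison set the climacteric against the young ooplast array, 1 each, with no test. Of the 8 Hippo pathway probes above background on both arrays, 2 were at least 2-fold apart, where 17.3% of 15518 probes were. Amot b was lower in the climacteric sample (9.92% of probes were at least 2-fold lower) and Tead1 c was higher (7.38% were at least 2-fold higher). The median of the 8 was -0.13, against 0.14 over all probes. Amot b stood at a scaled level of -1.65 in climacteric and 7.09 in young ooplasts, a difference of -8.74 or 427-fold, and ranked 7 from the lowest of 15518 probes. The difference was -7.50 with normexp, -8.30 with quantile normalization and -8.27 with the authors' values. Tead1 c stood at 0.74 in climacteric and -0.77 in young ooplasts, or 2.85-fold higher in climacteric ooplasts. On the log2 scale this was 1.51, and 1.03 with normexp. The other 6 probes, of Yap1, Tead2, Lats2, Nf2 and Amotl2, differed by -0.48 to 0.39. Of the 3 probes above background on 1 ooplast array, Wwtr1 a was at least 2.79-fold lower, Tead2 a at least 1.56-fold higher and Amot a at least 2.51-fold higher in the climacteric sample. The probes of Amot thus pointed in opposite directions.

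Neither Amot b spot on the ooplast arrays was saturated or marked as an outlier, and its signal error as given by the files was 14.3 units at 75.6 in climacteric ooplasts and 3199 units at 31987 in young ooplasts. Differences of 32-fold or more were lopsided between the ooplast arrays. Of 18913 probes above background on either, 302 were lower by that much in climacteric ooplasts and 20 higher. Between the replicates of climacteric blastocysts there were 18 such probes in one direction and 11 in the other, of 24584. Between those of young blastocysts there were 16 and 27, of 22704. Whether the Amot b value belongs to the age or to 1 of the 2 samples cannot be told apart with 1 array each. Macrophage markers also differed between the samples. Of 8, 6 were above background on each climacteric blastocyst array, 4 on each young blastocyst array, 6 on the climacteric ooplast array and 4 on the young one. Their summed level, relative to the 75th percentile, was 37.8 and 2.71 in climacteric blastocysts, 2.69 and 2.96 in young blastocysts, 35.1 in climacteric ooplasts and 2.86 in young ooplasts. Most of the 37.8 was Lyz2, at a scaled level of 5.07 on climacteric blastocyst replicate 1 and -6.02 on replicate 2. Of the single markers, Lyz2 stood at a scaled level of 3.94 in climacteric and -4.48 in young ooplasts, Fcer1g at 3.84 and 0.28, Adgre1 at 0.89 and -2.78, and Csf1r at 0.87 and -0.58, in the same order. Ptprc and Laptm5 were above background on neither ooplast array. The part of these markers in the values of Amot and Tead1 was not tested.

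The age difference in ooplasts minus that in blastocysts was tested with the blastocyst replicates as the only measure of spread, so the single ooplast arrays are assumed to vary as they do. Of 17 Hippo pathway probes, 1 passed, where 0.426% of 24180 probes did (0.405% lower, as Amot b was). For Amot b the value was -8.81 ± 0.68 (SE, adjusted p = 0.035), with a 95% interval from -10.57 to -7.05. The size of the difference was kept in the alternatives, from -9.22 to -7.60. The adjusted p ranged from 0.0035 to 0.19 over 13 alternatives and missed the threshold in 7 of them: with quantile normalization, with the authors' values, with the replicate block (each 0.063) and with any 1 blastocyst array left out (0.062 to 0.19). The remaining 16 probes had adjusted p-values of 0.63 to 0.99. Of the 38 other pathway genes tested, 0 passed, where 0.477% of all genes did. Between the ooplast arrays, 28 of those genes were above background on both, with 1 at least 2-fold higher and 3 at least 2-fold lower in climacteric ooplasts, where 17.2% of all genes were that far apart, 7.36% higher and 9.86% lower. These were Mob1b (1.13), Taok1 (-1.67), Rassf1 (-1.38) and Vgll1 (-1.02). With normexp, Mob1b (0.59) and Vgll1 (-0.49) were under 2-fold apart, and Vgll1 was so too when scaled by the probes above background on all arrays.

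**Figure D4:**
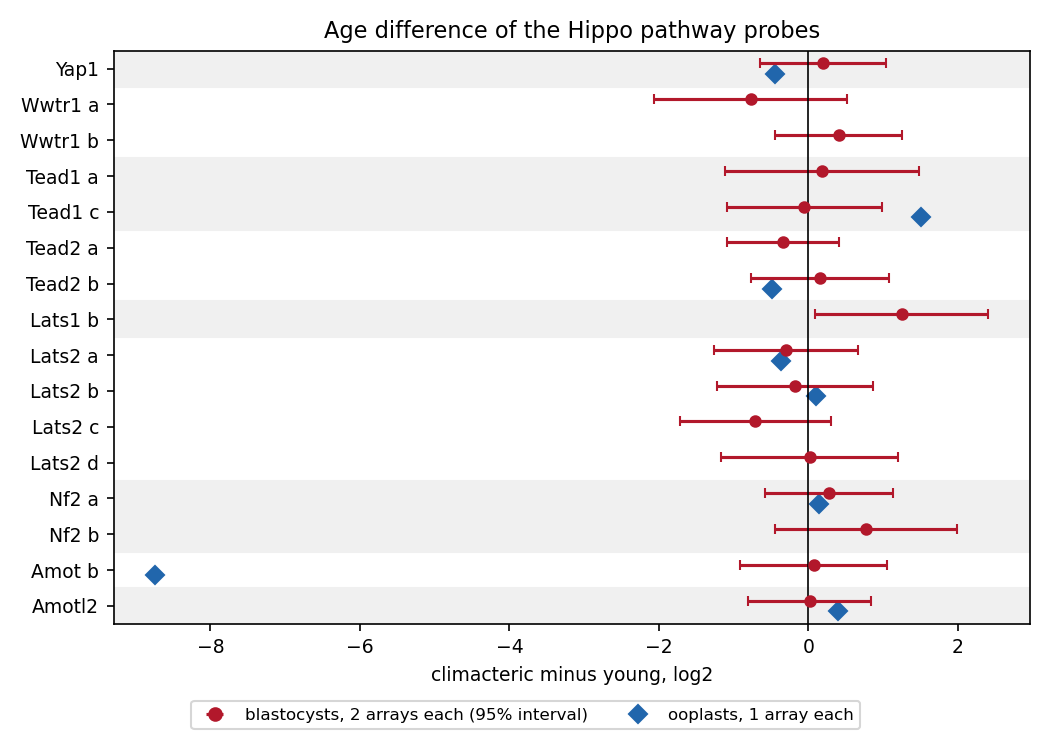
Age difference (climacteric minus young, log2, horizontal axis) of the 16 Hippo pathway probes tested in blastocysts, with 95% intervals from limma for blastocysts (circles, 2 arrays per age) and the single difference between the ooplast arrays (diamonds) where both were above background. Blastocyst values lie between -0.77 and 1.25, and the ooplast value of Amot b lies at -8.74.

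The genes most like Yap1 and Amot over the 6 arrays were sought among 13036 other named genes, by the root mean square difference after each gene was centred on its own mean. For Yap1 these were Kif5c, a kinesin gene (0.11), Senp5, a SUMO protease gene (0.13), and Thoc2, an mRNA export gene (0.13). Kif5c stood at 1.93 and 2.37 in climacteric blastocysts, 1.89 and 2.25 in young blastocysts, 6.04 in climacteric ooplasts and 6.20 in young ooplasts. For Amot, by probe b, the nearest was Glrx2, a mitochondrial glutaredoxin gene (0.30). It stood at -4.21 in climacteric ooplasts and at 4.78 in young ooplasts, and it was above background on 5 of the 6 arrays. Ccdc32 (0.79) and Tmem127 (0.80) were farther off.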

How the data were processed

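Per the submitters' processing notes, the arrays were quantified by Agilent Feature Extraction 9.5. The deposited processed signal is an intensity on a linear scale, background-subtracted by spatial detrending and not scaled between arrays, per the file headers. Probe positions are on mm8 as the headers give them. A table of values deposited by the authors is on a log2 scale. Set against the array of the same sample, each column ranked the spots alike (correlation 1) and matched quantile-normalized processed signals to within 0.00075. The column median was 6.25, and genes were not centred.

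Processed signals were scaled to the 75th percentile of the non-control spots of their array and taken to log2. Spots flagged as outliers were left out of a probe's mean unless all were. Every Hippo pathway probe has 1 spot, and of the 132 such spots 0 were saturated, 0 were flagged and 23 held a surrogate value. "Well above background" is the files' own flag. Gene names are those of the array files, with earlier symbols updated through a RefSeq table (GRCm38.p6). No mm8 genome was used here, and no probe was assigned to an exon or UTR.

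limma 3.58.1 in R 4.3.3 (lmFit, eBayes, two-sided, Benjamini-Hochberg over all probes tested, threshold 0.05) was run where all arrays of 1 or more of the compared groups had the probe well above background. The fit was also run on simulated data in which all arrays, the ooplast ones included, varied alike. Such data cannot bear on how the single ooplast arrays vary or on the slide. For a gene with several probes in the wider list, the brightest on average represented the gene. Of these 43 genes, those with the 12 largest stage differences, the 4 largest age differences in each sample type, all TEAD partners and 4 targets were named, with Stk3, Stk4, Sav1, Ankrd1, Axl and the stage value of Prkci added after their values were seen. The Hippo pathway members, lists and tests were chosen with earlier results of these data known. Replicates are described as biological, but the animals are not named, and p-values thus reflect only how these samples varied. The number of arrays limits the precision.

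Replicate 1 of each blastocyst group shared slide 1 with the ooplasts, and replicate 2 lay on slide 2, so the replicate number equals the slide. The deviations of replicate 1 from its group mean, in climacteric and in young blastocysts, correlated at 0.14 across 21649 probes (Pearson). The arrays form only 2 pairs. Such a small number of pairs does not settle whether the numbers pair the samples.

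The alternatives were other scalings, normexp background correction, the authors' values, other filters on dim probes, 1 probe per gene, the replicate block, slide 1 alone, each age alone, and each array left out. The alternative without scaling was chosen after seeing the data.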

Additional observations from a re-analysis of the deposited data

Results flagged for a closer look

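The age difference of Amot b in ooplasts minus that in blastocysts was -8.81 on the log2 scale (adjusted p = 0.035, limma). It rests on 1 array per age in ooplasts, and the adjusted p missed the threshold in 7 of 13 alternatives: with quantile normalization, the authors' values and the replicate block (each 0.063), and with any 1 blastocyst array left out (0.062 to 0.19).

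Among the 4 blastocyst arrays, 1 stood apart from the other three for 2 of the 22 Hippo pathway probes by Dixon's test, which chance flags in about 1 of 20 groups. Amotl1 b was highest in climacteric replicate 2, at a scaled level of -3.81 (ratio 0.894). Nf2 b was lowest in young replicate 1, at -4.95 (ratio 0.842). Neither of these spots was above background.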

How the results depend on the processing

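Yap1, Tead1 c, Tead2 b and Lats2 a and b kept their direction and their call for stage in each alternative run. Wwtr1 a and b and Lats2 d did so where they were tested. The filter that asks for every array to be above background left them out, so their entry through the blastocysts was not checked. Values with another direction were those of Tead1 a with normexp (-0.36), of Amotl2 (1.04), Nf2 a (0.27) and Vgll1 (0.35) without scaling, and of Amot b without the climacteric ooplast array and in young arrays alone (-3.98 each, against 4.83 without the young ooplast array). The cause was not tested. Without scaling, 16112 probes passed for stage, 13247 higher and 2865 lower, against 7460 higher and 8015 lower with it, and the Hippo pathway count was 12, with 11 higher and 1 lower. The number of probes past the threshold for stage was 29232 with no filter and 9781 when each array had to be above background, since other numbers of probes were tested. The Hippo pathway count for stage was 7 with that filter, 7 with 1 probe per gene, and 11 to 14 with an array left out. For age in blastocysts, 26 probes passed without scaling. For the age-by-stage difference, 278 passed with normexp, 240 without scaling, 49 with no filter and 159 with the strict filter. It was 0 with quantile normalization (2942 at an unadjusted p under 0.05), with the authors' values (2956) and with the replicate block (2366), and 0 to 0 with a blastocyst array left out (2072 to 2708), all by limma, and the Hippo pathway count was then 0 as well. Between ooplasts, 1608 probes were at least 2-fold apart with normexp and 6972 with no filter, and Amot b stood at -7.50 to -8.74. The replicate block changed no Hippo pathway call but those of Amotl2 (-0.88), Tead1 a (0.86) and Amot b in the age-by-stage difference (-8.81, adjusted p = 0.063). Leaving out an ooplast array leaves that difference without a value. The dimmer ooplast arrays limit what can be said of probes that were not above background there.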
